A study of Mus musculus with 24 samples.

Results

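The 28 genes described here encode the enzymes that build cholesterol, the proteins that control their transcription through the sterol regulatory element-binding proteins (SREBPs), and 1 sterol carrier. They were taken by name, in pathway order, from the 56941 gene IDs listed for each library: 8 genes of the mevalonate and isoprenoid steps, 3 of the squalene and lanosterol steps, 9 that turn lanosterol into cholesterol, 7 SREBP control genes and the sterol carrier Stard4. The choice was by name, but it was made with earlier results of these data known. Of the 28 genes, 27 were among the 13281 genes that passed the low-count filter. Idi1, the isopentenyl diphosphate isomerase, did not pass, with 0.238 to 2.49 CPM (counts scaled to a common library total) over the libraries, and it has no test.

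The series is RNA-seq of polyadenylated RNA from a mouse cell line that its design text describes as adult hypothalamic neurons, grown in high or normal glucose with or without mogroside V, a sweet-tasting triterpene glycoside that monk fruit contains. The 8 groups were high glucose without mogroside V (HGC), high glucose with dose label 1, 2 or 3 (HG1, HG2, HG3), normal glucose without it (NGC) and normal glucose with the same dose labels (NG1, NG2, NG3). The design text lists 15, 60 and 160 µM, but the labels do not say which dose number is which concentration. The sources used here do not give the line's name, the glucose concentrations or the length of exposure, and no label says whether the 3 libraries of a group are separate cultures. The p-values therefore rest on the spread among libraries, which may be technical.

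The files labelled HG2 replicate 3 and HG3 replicate 2 were identical, and both were left out, which leaves 22 libraries with n = 2 in HG2 and HG3 and n = 3 elsewhere. These libraries held 3396249 to 7773074 counts in genes. NG3 replicate 3 and HGC replicate 2 stood apart on the first principal components, and counts of calls are given below with and without them. The neuronal markers Map2 and Tubb3 were present at 33.7 to 69.1 and 42.9 to 71.6 CPM, but Rbfox3, Snap25 and Syt1, which mark mature neurons, had a median of 0 CPM. Some genes typical of fibroblasts and pericytes were abundant, with medians of 1390 CPM for Col1a1, 3390 CPM for Col1a2 and 1710 CPM for Acta2. Others of the same list were lower, with medians of 265 CPM for Pdgfrb, 60.8 for Postn, 43.4 for Thy1, 38.2 for Pdgfra, 7.03 for Dcn and 0 for Lum. The summed level of that list of 9 genes was 6810 to 7750 CPM in high-glucose libraries and 5010 to 7240 CPM in normal-glucose libraries, and 3 of its 8 tested genes were higher over the control and 3 dose levels together, Col1a1, Acta2 and Postn (edgeR, adjusted p under 0.05). Of 5 adipocyte markers, whose summed level was 11.2 to 33.0 CPM in high glucose and 6.28 to 14.7 CPM in normal glucose, Fabp4 was higher in every comparison of media (13 ± 4.73 CPM in high glucose and 2.35 ± 1.38 CPM in normal glucose, log2 2.46 ± 0.23), whereas Adipoq and Cidec had a median of 0 CPM. Csf1r, from a list of 7 microglia and macrophage markers, was also higher (log2 0.88 ± 0.22). Of the same list, Cx3cr1 had a median of 3.43 CPM, Aif1 and Tyrobp had a median of 0 CPM, and C1qa, C1qb and Ptprc had medians of 0.277, 0.237 and 0.261 CPM. Map2, from a list with 7 tested neuronal markers, and the progenitor marker Nes were lower (log2 -0.39 ± 0.08 and -0.36 ± 0.07). Nes was read from a list of 8 astrocyte and tanycyte markers, of which 3 were tested. Of that list, Vim had a median of 3210 CPM, Slc1a3 2.46, S100b 0.635 and Rax 0.0981 CPM, and Gfap, Aqp4 and Aldh1l1 had 0 CPM. Tests of the other neuronal, astrocyte and tanycyte markers are not printed here. The part of these markers in the results below was not tested. In bulk RNA, fewer cells of a type and less RNA per cell cannot be told apart.

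Cells make cholesterol from acetyl-CoA through mevalonate, farnesyl diphosphate, squalene and lanosterol. In the animal, the brain relies on its own synthesis because lipoproteins of the blood do not enter it. When membranes of the endoplasmic reticulum are poor in sterol, Scap carries the SREBP precursors to the Golgi, where the proteases encoded by Mbtps1 and Mbtps2 free the transcription factor. When sterol is plentiful, Insig proteins hold Scap back. SREBP2, encoded by Srebf2, mainly drives sterol genes, and SREBP1, encoded by Srebf1, mainly fatty acid genes.

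Per kilobase of annotated exon, the most abundant of the 28 transcripts in NGC was Ebp, at 50.8 ± 3.4 CPM per kb (SD, n = 3). Acat2 and Hmgcs1 followed at 31.9 ± 1.97 and 29.5 ± 6.44 CPM per kb, a difference smaller than their spread, and Msmo1 and Cyp51 at 22.7 ± 1.01 and 22.2 ± 1.36, likewise within their spread. The lowest after Idi1 were Tm7sf2 at 1.23 ± 0.348 and Lss at 1.46 ± 0.259 CPM per kb. The same 5 genes led in HGC. Mbtps1, the protease that makes the first cut in SREBP, was at rank 6 of 28 in NGC (19.7 ± 1.18 CPM per kb) and shared rank 11 with Fdps in HGC (19.6 ± 0.407), where enzymes had higher levels. Exon length here joins the exons of all annotated transcripts, with 10787 bases for Lss and 10539 for Mbtps1, so these ranks depend in part on annotation. In CPM without this division, Lss in NGC (15.8 ± 2.79) was above Lbr (11.8 ± 0.726) and Dhcr7 (10.9 ± 2.86).

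Between the untreated controls, most of the enzymes were higher in high glucose and the control genes did not pass the test. Of the 27 genes tested, 14 were higher in HGC than in NGC at an adjusted p under 0.05 (edgeR's quasi-likelihood test, adjusted over all genes), and 0 were lower. Over all 13281 genes the same rule called 1.89% higher and 0.392% lower. A positive log2 change was seen in 23 of the 27 genes, against 48.3% of all genes, and the median log2 change was 0.64, against -0.01 over all genes. Each of the 14 genes had all 3 HGC libraries above all 3 NGC libraries, as did Pmvk and Ebp, which did not pass. Such a separation was found upward in 8.95% of all genes.

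**Figure D1:**
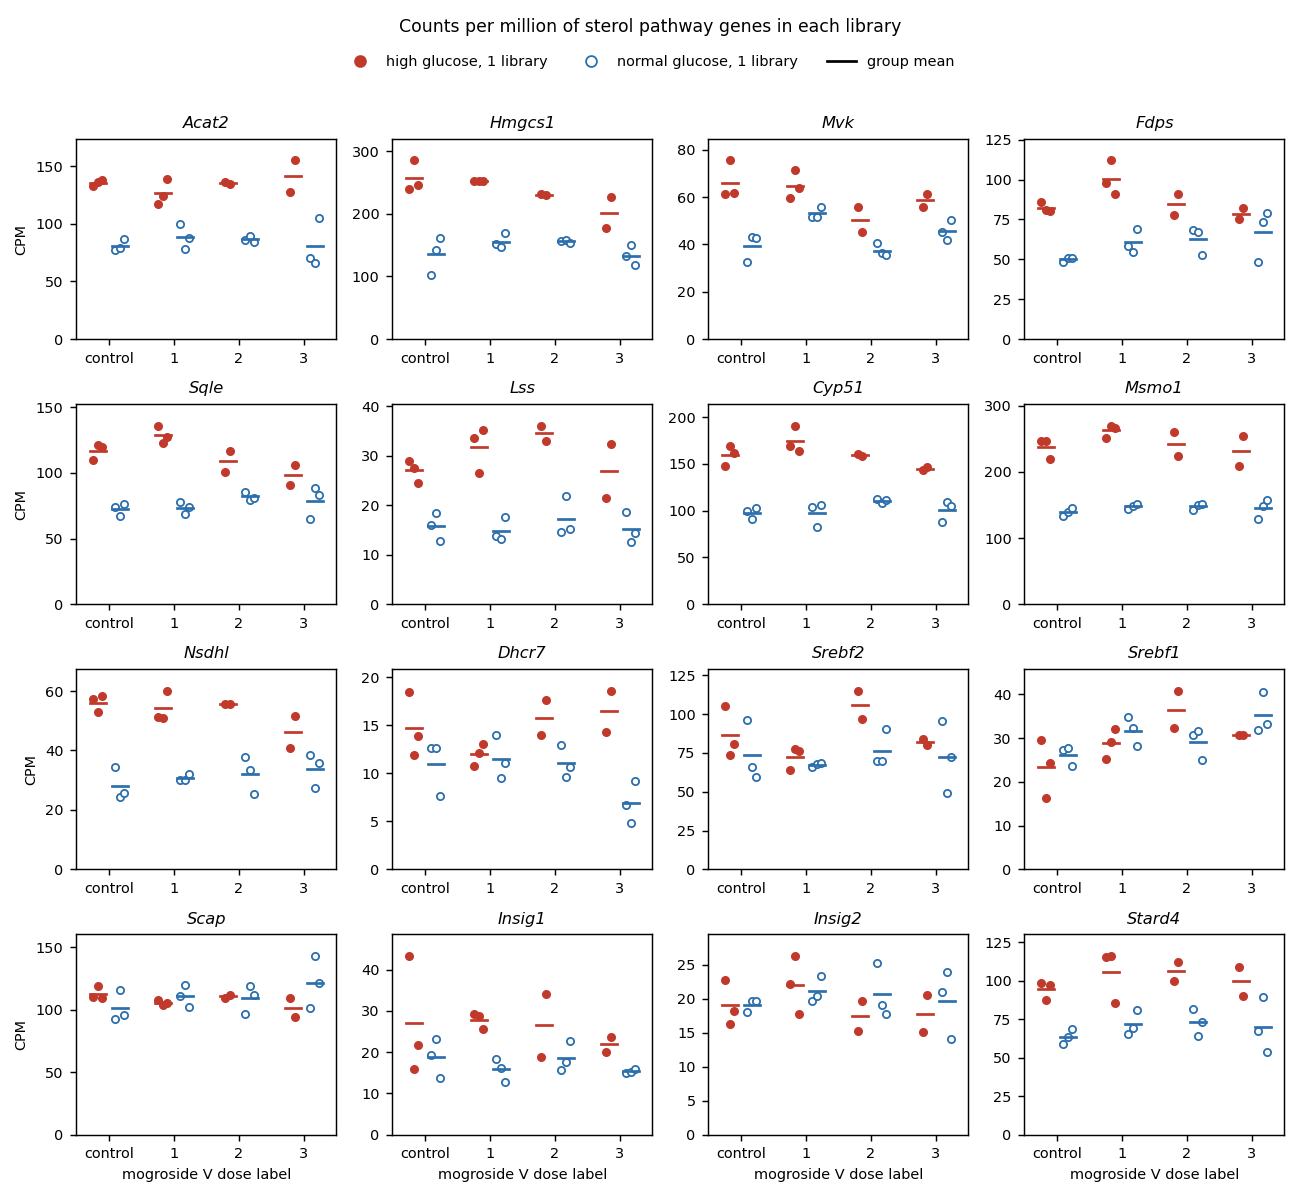
CPM (y axis, linear from 0) of 16 of the 28 genes in each library, by mogroside V dose label (x axis). Filled red points are high-glucose and open blue points normal-glucose libraries, with 3 libraries in a group except HG2 and HG3, which have 2, and lines are group means. The enzymes Hmgcs1, Cyp51, Msmo1 and Nsdhl show high-glucose libraries above normal-glucose libraries at every level, whereas the points of Scap and Insig2 intermingle.

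In the mevalonate steps, 5 of 7 tested genes were higher in HGC. Acat2, which joins acetyl-CoA units into acetoacetyl-CoA, had 133, 136 and 138 CPM in HGC, against 77.7, 78.7 and 86.8 CPM in NGC. Hmgcs1, which adds the next acetyl group to make HMG-CoA, had 239, 285 and 246 CPM in HGC, against 103, 142 and 161 CPM in NGC. The groups did not overlap for either gene, and the log2 changes were 0.74 ± 0.13 and 0.93 ± 0.13 (± standard error, as for every log2 change here), with adjusted p = 0.000376 and 3.71e-06. Mvk phosphorylates mevalonate and had 61.3, 75.5 and 61.7 CPM in HGC, against 32.4, 43.1 and 42.6 CPM in NGC (log2 0.76 ± 0.15, adjusted p = 0.00106). Mvd, which decarboxylates mevalonate diphosphate to isopentenyl diphosphate, averaged 60.5 ± 4.74 CPM in HGC and 34.1 ± 5.36 CPM in NGC (SD, n = 3 each).

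Fdps makes farnesyl diphosphate, the last intermediate shared by sterols and the non-sterol branches. It had 85.7, 80.9 and 80.2 CPM in HGC, against 48.5, 50.8 and 50.7 CPM in NGC, with the groups far apart (log2 0.72 ± 0.15, adjusted p = 0.00261). Pmvk, the phosphomevalonate kinase, did not pass at log2 0.56 ± 0.21 (adjusted p = 0.191). Ggps1, which extends farnesyl diphosphate away from the sterol branch, had 23.4, 24.4 and 28.7 CPM in HGC, against 23.2, 24.2 and 25.9 CPM in NGC. Its groups overlapped almost fully (log2 0.06 ± 0.20).

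All 3 genes between farnesyl diphosphate and lanosterol were higher in HGC. Fdft1, the squalene synthase that commits carbon to sterols, had 40.1, 48.0 and 46.0 CPM in HGC, against 23.9, 28.1 and 24 CPM in NGC (log2 0.82 ± 0.19, adjusted p = 0.00648). Sqle, the oxygen-dependent squalene epoxidase, had 110, 121 and 120 CPM in HGC, against 74.0, 67.5 and 76.1 CPM in NGC (log2 0.69 ± 0.12, adjusted p = 0.000346). Lss, which closes the sterol rings, had 29.0, 27.5 and 24.6 CPM in HGC, against 16.1, 18.4 and 12.8 CPM in NGC. The groups did not overlap for Lss either, but its call lay close to the threshold (log2 0.78 ± 0.22, adjusted p = 0.0419).

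After lanosterol, 5 of 9 genes were higher in HGC. Cyp51, the lanosterol demethylase, had 148, 169 and 162 CPM in HGC, against 99.5, 91.5 and 103 CPM in NGC (log2 0.70 ± 0.12, adjusted p = 0.000125). Msmo1, Nsdhl and Hsd17b7 together strip the methyl groups from the fourth ring carbon. Msmo1 had 246, 247 and 219 CPM in HGC, against 133, 139 and 146 CPM in NGC (log2 0.77 ± 0.11, adjusted p = 6.46e-06). Nsdhl had 57.3, 52.9 and 58.2 CPM in HGC, against 34.5, 24.4 and 25.7 CPM in NGC. At 0.98 ± 0.17 its log2 change was the largest of the 27 (adjusted p = 0.000177), and its lowest HGC library lay above its highest NGC library. Hsd17b7 averaged 46.0 ± 5.10 CPM in HGC and 28.8 ± 3.96 CPM in NGC, and Sc5d, the sterol desaturase, 107 ± 5.40 CPM in HGC and 68.9 ± 8.51 CPM in NGC (log2 0.64 ± 0.13).

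The other 4 genes after lanosterol did not pass. Ebp, the sterol isomerase, had 148, 149 and 146 CPM in HGC, against 126, 117 and 110 CPM in NGC, without overlap but with a log2 change of 0.33 ± 0.16 (adjusted p = 0.391). Dhcr7, which carries out the last reduction to cholesterol, had 18.5, 11.9 and 13.9 CPM in HGC, against 12.6, 12.6 and 7.61 CPM in NGC (log2 0.43 ± 0.27), with overlap. Tm7sf2 and Lbr encode a pair of sterol reductases that act at the same step, Lbr being also a receptor for lamins in the nuclear envelope. Tm7sf2 had 6.99, 7.80 and 11.9 CPM in HGC, against 7.06, 5.08 and 4.04 CPM in NGC (log2 0.70 ± 0.36). Lbr had 11.6, 10.7 and 4.34 CPM in HGC, against 11.6, 12.6 and 11.2 CPM in NGC (log2 -0.40 ± 0.36). It was the only enzyme with a negative estimate, with 1 low library in HGC. Stard4, a soluble carrier that moves sterol between membranes, was higher in HGC at 98.1, 87.5 and 97.3 CPM, against 58.7, 63.2 and 68.5 CPM in NGC (log2 0.57 ± 0.15, adjusted p = 0.0293).

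None of the 7 control genes passed between the controls, and their median log2 change was 0.000217. Srebf2 had 105, 73.6 and 80.8 CPM in HGC, against 96.1, 65.8 and 59.2 CPM in NGC (log2 0.22 ± 0.19, adjusted p = 0.705). The ranges overlapped, and the change was 0.06 without HGC replicate 1 and 0.47 without NGC replicate 1, the lowest and highest with 1 library left out. Srebf1 had 29.6, 16.3 and 24.3 CPM in HGC, against 27.3, 27.8 and 23.6 CPM in NGC (log2 -0.17 ± 0.19). Scap had 110, 119 and 109 CPM in HGC, against 92.8, 116 and 95.4 CPM in NGC (log2 0.15 ± 0.13). None of these 3 estimates lay much farther from 0 than its standard error. Insig1, itself a target of SREBPs in mammalian cells, had 43.3, 15.8 and 21.7 CPM in HGC, against 19.2, 23.2 and 13.8 CPM in NGC. A single library carried its estimate, since the log2 change was 0.52 ± 0.26 with HGC replicate 1 and -0.005 without it. Insig2 was at 19.1 ± 3.35 CPM in HGC and 19.1 ± 0.94 CPM in NGC, Mbtps1 at 207 ± 4.29 CPM in HGC and 208 ± 12.5 CPM in NGC, and Mbtps2 at 17 ± 1.93 CPM in HGC and 17.7 ± 2.02 CPM in NGC.

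Leaving out 1 control library at a time left 9 to 13 of the 27 genes called, with 9 without NGC replicate 1, and 13 were called without the 2 libraries that stand apart. Of the 14 calls, 9 held in all 6 such fits; Fdft1, Hsd17b7, Lss, Mvd and Stard4 did not. Lss was called in none of them, with adjusted p up to 0.191.

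The treated cells gave the comparison again in libraries that share none with the controls. In HG1 to HG3 against NG1 to NG3, 18 of 27 genes were higher (7 and 9 libraries) and 0 were lower, where 4.69% of all genes were called higher and 3.41% lower. These 18 included each of the 14 genes called between the controls, so the overlap was 100% of the 14 and 77.8% of the 18. Over all genes, 168 of 251 genes called higher between the controls were also called here (66.9% of the 251 and 27% of the 623 called here). The 4 further genes were Pmvk, Ebp, Dhcr7 and Insig1. The calls of Pmvk, Dhcr7, Insig1, Fdft1 and Mvk did not hold in every fit that left out 1 treated library. With single treated libraries left out, 14 to 19 genes were called, with 14 without HG2 replicate 2 and also 14 without HG3 replicate 3, and 13 of the 18 calls held in all 16 fits.

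**Figure D2:**
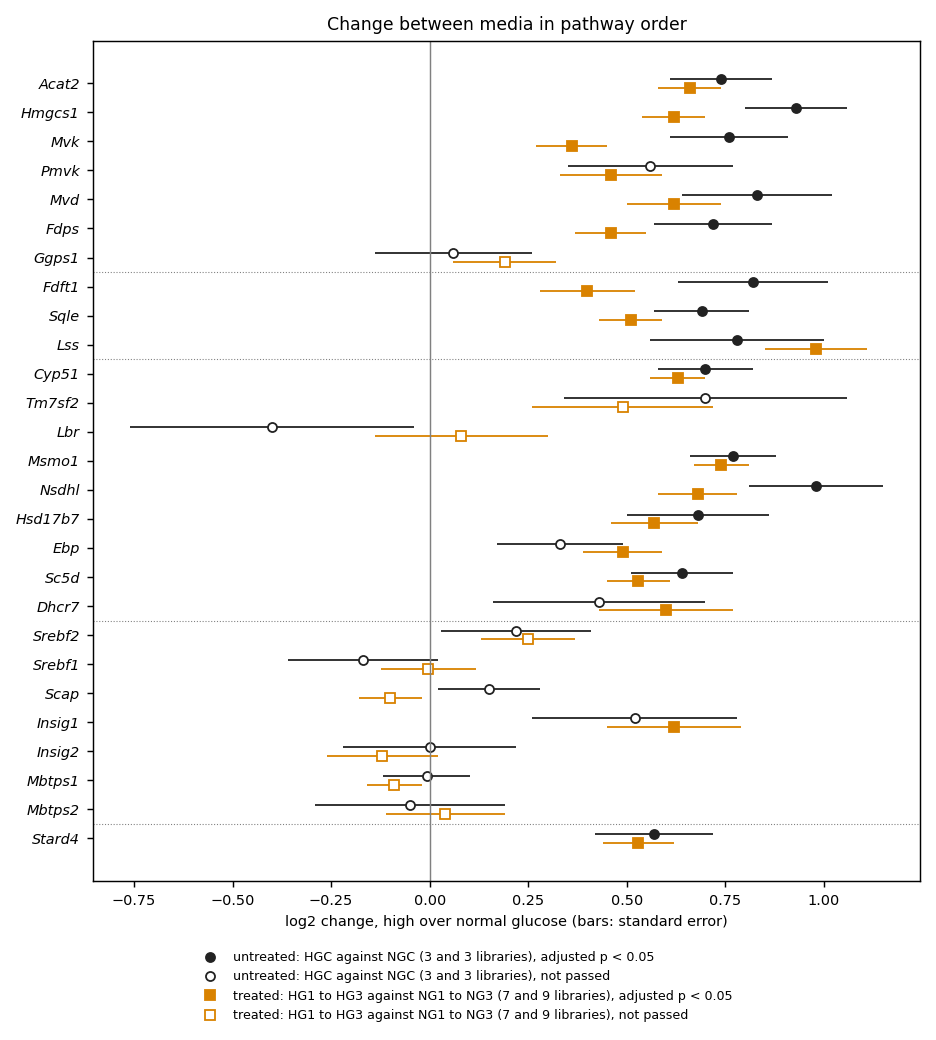
Log2 change of high over normal glucose (x axis) for the 27 tested genes in pathway order from top to bottom, with horizontal bars for the standard error. Black circles compare HGC with NGC and orange squares compare treated libraries, filled where the adjusted p was under 0.05, and dotted lines part the pathway sections. The enzymes from Acat2 to Dhcr7 lie between 0.33 and 0.98, except Ggps1 and Lbr, and the control genes from Srebf2 to Mbtps2 lie near 0 except Insig1 and, at 0.22 and 0.25, Srebf2.

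Among treated libraries, Hmgcs1 ranged from 177 to 253 CPM in high glucose (median 231) and from 118 to 169 CPM in normal glucose (median 151). Msmo1 ranged from 209 to 270 CPM in high glucose (median 254) and from 129 to 157 CPM in normal glucose (median 149). Lss ranged from 21.4 to 36.1 CPM in high glucose (median 33.0) and from 12.5 to 21.8 CPM in normal glucose (median 14.5). Of these 3 genes, Lss alone had ranges that overlapped, by 1 library on each side, and its log2 change of 0.98 ± 0.13 was the largest of the 27 in this comparison (adjusted p = 1.81e-06). Those of Msmo1 and Hmgcs1 were 0.74 ± 0.07 and 0.62 ± 0.08. The smallest of the 18 was that of Mvk, at 0.36 ± 0.09 (adjusted p = 0.00978).

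Over all 4 levels together, 10 high-glucose libraries against 12 normal-glucose libraries, 18 genes were higher and 0 lower, where 5.71% of all genes were called higher and 4.38% lower, and all 18 held in each of the 22 fits that left out 1 library. This comparison contains the libraries of the 2 above. No library of high glucose overlapped normal glucose for 7 genes, Acat2, Hmgcs1, Sqle, Cyp51, Msmo1, Nsdhl and Sc5d, a separation found upward in 0.783% of all genes. Msmo1, for example, averaged 245 ± 20.9 CPM in high glucose and 145 ± 7.99 CPM in normal glucose (log2 0.75 ± 0.06, adjusted p = 4.55e-13), and Sc5d 100 ± 8.26 CPM in high glucose and 67.3 ± 5.39 CPM in normal glucose (SD, n = 10 and 12). The 9 genes that did not pass were Ggps1, Tm7sf2, Lbr, Srebf2, Srebf1, Scap, Insig2, Mbtps1 and Mbtps2. Tm7sf2 came nearest, at log2 0.54 ± 0.20 (adjusted p = 0.0726), and passed without NG3 replicate 1 (adjusted p = 0.0375) and with the identical file kept as HG3 replicate 2 (adjusted p = 0.0428).

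Of the control genes, Insig1 alone passed over the 4 levels. It ranged from 15.8 to 43.3 CPM in high glucose (median 24.6) and from 12.8 to 23.2 CPM in normal glucose (median 16), with a log2 change of 0.60 ± 0.14 (adjusted p = 0.00429). Its treated libraries gave 0.62 ± 0.17 on the log2 scale, without the high HGC library. That estimate was 0.46 without HG2 replicate 2 and 0.75 without HG2 replicate 1. Srebf2 ranged from 63.9 to 115 CPM in high glucose and from 49.2 to 96.1 CPM in normal glucose, and did not pass at log2 0.25 ± 0.10 (adjusted p = 0.125). This result lay near the threshold: Srebf2 passed without NG3 replicate 1 (log2 0.32, adjusted p = 0.0155), without NGC replicate 1 (log2 0.31, adjusted p = 0.0236) and without the low-count filter (log2 0.24, adjusted p = 0.0324), but in none of the other 20 fits that left out 1 library. Among treated libraries it was at 0.25 (adjusted p = 0.207) and passed without NG3 replicate 1 (adjusted p = 0.0329). The other 5 lay between -0.09 and 0.02 with standard errors of 0.06 to 0.13. The direction of Srebf1, Scap and Mbtps2 changed in some of the alternative fits, always near 0.

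The size of the difference was set out at each level. At dose label 1, 11 of 27 genes were higher in HG1 than in NG1, where 1.32% of all genes were called higher. At dose label 2 there were 8 in HG2 against NG2, where 0.61% were, and at dose label 3 there were 5 in HG3 against NG3, where 0.678% were. The median log2 change was 0.52, 0.53 and 0.32 at dose labels 1, 2 and 3. HG2 and HG3 have 2 libraries each, and leaving out 1 library gave 7 to 10 calls at dose 1 (7 without HG1 replicate 2), 0 to 3 at dose 2 (0 without HG2 replicate 1) and 0 to 5 at dose 3 (0 without HG3 replicate 3). At dose 3 there were 9 calls with the identical file kept as HG3 replicate 2, which added Lss, Nsdhl, Sc5d and Stard4, and 0 with only those groups in the fit. The difference in counts between doses was not tested. Acat2, Hmgcs1, Cyp51 and Msmo1 passed at all 4 levels.

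The values of a few genes over the levels are given as a description, since no test compared 1 dose label with another. Tests of each dose between media and against its own control were run. Hmgcs1 averaged 257 ± 24.7, 252 ± 0.453, 230 ± 0.896 and 202 ± 34.5 CPM in HGC, HG1, HG2 and HG3, against 135 ± 29.6, 156 ± 12, 156 ± 2.53 and 133 ± 15.8 CPM in NGC, NG1, NG2 and NG3. Its difference between media was 0.93, 0.70, 0.56 and 0.60 on the log2 scale from control to dose 3. Dhcr7 had log2 differences of 0.43, 0.05, 0.50 and 1.25 from control to dose 3, and passed at dose 3 only (adjusted p = 0.0298). There it had 14.3 and 18.6 CPM in HG3, against 6.66, 4.87 and 9.17 CPM in NG3. The NG3 libraries include the lowest Dhcr7 values of the series. Tm7sf2 had 0.70, 0.83 and 0.84 in the controls and at doses 1 and 2, and -0.21 ± 0.42 at dose 3, at levels of 2.97 to 12.4 CPM.

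Mogroside V itself gave no call among the 27 genes. In high glucose, HG1 to HG3 against HGC called 0 of 27 genes and 0 of all genes with edgeR (unadjusted p under 0.05 for 2 of the 27 and for 679 of all), and DESeq2 also called 0 of all genes. In normal glucose, NG1 to NG3 against NGC called 0 of 27 and 0 of all genes (unadjusted p under 0.05 for 1 of the 27 and for 1120 of all), and DESeq2 called 103 of all genes and 0 of the 27. The background was 0.0% in both. Each of the 6 single doses against its own control also called 0 of the 27 genes with edgeR and with DESeq2. With 1 library left out, the exception was Fdps, which was called in NG3 against NGC without NG3 replicate 1 (log2 0.60, adjusted p = 0.0382, against 0.42 and 0.25 with all libraries). Over all genes, edgeR called 0.00753% in NG2 against NGC, 0.128% in NG3 against NGC and 0.0% at the other 4.

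The members with the lowest unadjusted p are given for their size. Fdps averaged 63.4 ± 10.5 CPM in treated normal glucose (n = 9) and 50 ± 1.32 CPM in NGC (n = 3), or log2 0.35 ± 0.12 (adjusted p = 0.367). Srebf1 averaged 31.5 ± 4.72 CPM in treated high glucose (n = 7) and 23.4 ± 6.67 CPM in HGC (n = 3), a log2 change of 0.45 ± 0.17 (adjusted p = 0.927). Here HGC replicate 2, which stands apart, held the lowest Srebf1 value of all libraries, 16.3 CPM. The change was 0.24 without it and 0.66 without HGC replicate 1. Fdft1 had a log2 change of -0.33 ± 0.15 in treated high glucose against HGC (adjusted p = 0.938).

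The test of the difference between these responses, that is of treated against control in high glucose minus the same in normal glucose, called 0 of 27 genes, with 1 call among all genes (0.00753%). Positive estimates were seen for 9 of the 27 genes, against 49.6% of all genes, with a median of -0.09 against -0.002 over all genes. Mvk and Hmgcs1 had unadjusted p under 0.05, at -0.40 ± 0.17 (adjusted p = 0.514) and -0.31 ± 0.15 (adjusted p = 0.569). Single libraries moved the Hmgcs1 value, to -0.14 without NGC replicate 1 and -0.45 without NGC replicate 3, and Mvk was at -0.27 without NGC replicate 1. For Mvk, the log2 difference between media was 0.76 in controls and 0.36 in treated libraries. DESeq2 called 72 of all genes and 0 of the 27 in this test.

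Seen by library, the mean of log2(CPM + 1) over the 19 tested enzymes, set to 0 at the NGC mean, was 0.38 to 0.68 in the 10 high-glucose libraries and -0.01 to 0.13 in the 12 normal-glucose libraries. No high-glucose library came near the normal-glucose range, and the lowest, at 0.38, belonged to HG3. The same mean over the 7 control genes was -0.11 to 0.29 in high glucose and -0.09 to 0.10 in normal glucose, and these ranges overlapped. Within groups, where medium and dose are constant, the deviations of the 19 enzymes from their group means had a median pairwise correlation of 0.009 over 171 pairs and 22 libraries, against -0.0009 over all genes. Between media most enzymes differed in the same direction, whereas their deviations within a group hardly correlated at this depth.

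**Figure D3:**
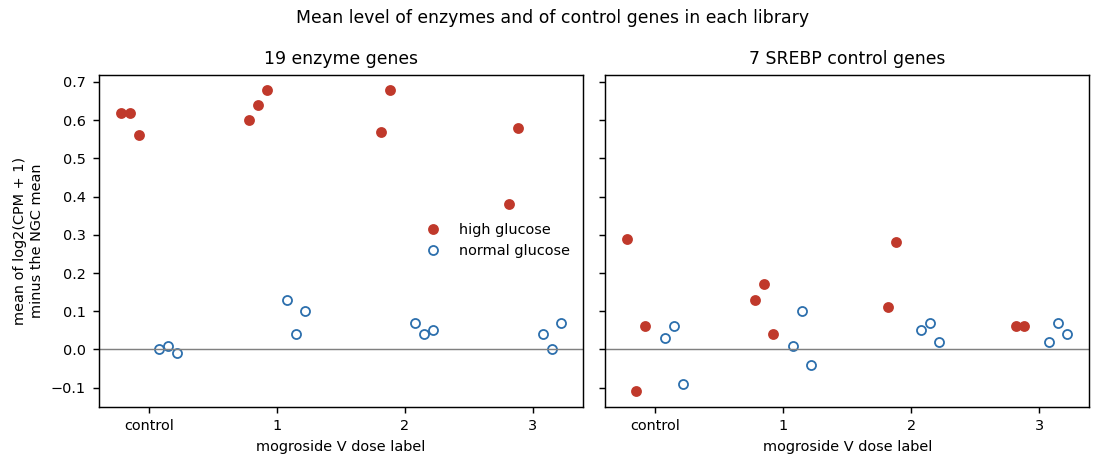
Mean of log2(CPM + 1) minus the NGC mean (y axis) over the 19 enzyme genes on the left and the 7 SREBP control genes on the right, by dose label (x axis). Each point is 1 library, filled red for high glucose and open blue for normal glucose. The enzyme means are 0.38 to 0.68 in high glucose and -0.01 to 0.13 in normal glucose, while those of the control genes overlap.

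SREBPs bind sterol regulatory elements, usually beside sites for NF-Y (the CCAAT box) and Sp1 (the GC box), so the start regions of the genes were read for these letters. RefSeq windows of 300 bases (250 before and 50 from the start on, build GRCm38.p6, not the GRCm39 of the counts) were found for 24 of the 28 genes. The sterol element core, CACCCCAC or its reverse complement GTGGGGTG, was in the windows of 2 of the 24 genes, Hmgcs1 and Acat2, against 3.3% of 27025 genes with a window. The CCAAT box, CCAAT or ATTGG, was in 20 of the 24, against 41.1%, and the GC box, GGGCGG or CCGCCC, in 21 of the 24, against 38.2%. The E-box CACGTG, which SREBP1 also binds, was in 5 of the 24, against 8.09%. Of the 14 genes with a window that were higher over the 4 levels, 13 had a CCAAT box and 13 a GC box. Of the 9 that did not pass, all of which have a window, 6 had a CCAAT box and 7 a GC box. These matches are letters in a window, not bound sites. The shares are over all genes with a window, whether tested or not, and were not taken over tested genes alone. In 26 of the 32 windows of the 24 genes, the last 30 bases were found in a transcript of the gene.

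The windows of Hmgcs1 and Acat2 are shown because they hold the sterol element core, which is in capitals. It spans positions -136 to -129 in Hmgcs1 and -181 to -174 in Acat2, counted from the annotated start at 0.
Hmgcs1 (chr13:119690101-119690400, plus strand): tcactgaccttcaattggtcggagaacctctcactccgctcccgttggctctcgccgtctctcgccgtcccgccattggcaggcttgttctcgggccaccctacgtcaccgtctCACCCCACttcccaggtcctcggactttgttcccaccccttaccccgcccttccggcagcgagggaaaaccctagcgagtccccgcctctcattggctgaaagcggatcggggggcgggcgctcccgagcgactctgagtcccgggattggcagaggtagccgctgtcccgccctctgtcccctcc
Acat2 (chr17:12960676-12960975, minus strand): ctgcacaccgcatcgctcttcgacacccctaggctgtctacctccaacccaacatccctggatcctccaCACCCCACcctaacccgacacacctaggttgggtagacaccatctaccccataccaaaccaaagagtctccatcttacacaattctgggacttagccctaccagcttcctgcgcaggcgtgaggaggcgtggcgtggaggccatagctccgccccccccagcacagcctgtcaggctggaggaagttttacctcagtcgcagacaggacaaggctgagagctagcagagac

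Mvk and Nsdhl, higher in HGC and without that core, had 5 and 4 CCAAT boxes, which are in capitals below. They were chosen after their values were seen, as called genes with at least 4 such boxes and no core.
Mvk (chr5:114444019-114444318, plus strand): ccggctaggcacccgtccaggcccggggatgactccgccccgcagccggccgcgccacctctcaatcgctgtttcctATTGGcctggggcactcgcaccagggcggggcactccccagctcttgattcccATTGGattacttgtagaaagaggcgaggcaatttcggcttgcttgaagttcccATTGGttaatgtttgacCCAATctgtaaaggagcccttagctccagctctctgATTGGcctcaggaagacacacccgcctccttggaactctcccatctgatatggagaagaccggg
Nsdhl (chrX:72918271-72918570, plus strand): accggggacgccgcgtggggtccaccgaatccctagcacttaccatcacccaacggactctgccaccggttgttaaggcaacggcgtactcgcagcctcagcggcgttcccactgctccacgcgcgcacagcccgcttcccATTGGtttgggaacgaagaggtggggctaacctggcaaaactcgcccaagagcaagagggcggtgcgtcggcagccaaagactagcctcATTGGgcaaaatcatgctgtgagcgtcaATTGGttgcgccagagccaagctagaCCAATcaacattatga

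**Figure D4:**
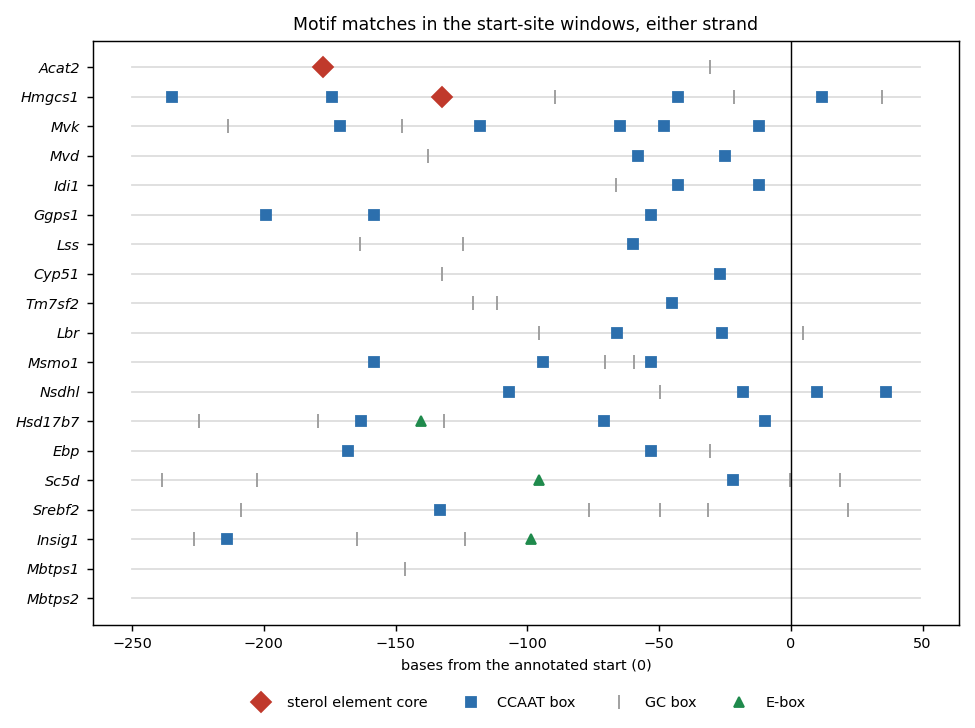
Positions of motif matches on either strand (x axis, bases from the annotated start at 0) in the 300-base windows of the 19 genes with a single window, in pathway order from top to bottom. Red diamonds are the sterol element core, blue squares CCAAT boxes, grey ticks GC boxes and green triangles E-boxes. The core appears in Acat2 and Hmgcs1, and CCAAT boxes in most rows from Hmgcs1 to Insig1.

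Near-identical copies and overlapping genes limit some of these counts. Acat2 shares 1477 bases at 97.7% identity with Acat3, and Idi1 shares 684 bases at 100% with Gm13502. Fdft1 shares 1249 bases at 97.4% with Gm6781, and Ggps1 shares 903 bases at 97.2% with Gm5630. Reads may have been split or dropped within these pairs. Fdft1 overlaps Ctsb on the opposite strand by 774 exon bases, and Scap, Hmgcs1, Idi1, Lbr, Lss, Ggps1, Cyp51 and Srebf1 also overlap a gene on the opposite strand. Whether the counting used strand is not stated in the sources, and reads from these stretches cannot be told apart. On the same strand, Mbtps2 shares 2867 exon bases with Yy2, Fdps 1124 with Gm43738 and Tm7sf2 532 with Vps51, and Lbr and Srebf1 share 69 and 66 with Gm26004 and Mir6922, where reads are ambiguous with or without strand.

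Genes beside the pathway were read from lists of the same kind. In the isoprenoid branch, which feeds prenylation, ubiquinone and dolichol, 0 of 13 genes passed over the 4 levels (0 also between the controls, edgeR). Over the 4 levels 5.71% of all genes were called higher and 4.38% lower, and between the controls 1.89% and 0.392%. In a list this short, 0 calls lie near these shares. The median log2 change of the branch over the 4 levels was -0.005. Nus1, a subunit of the enzyme that makes dolichol precursors, averaged 126 ± 11.8 CPM in high glucose and 120 ± 10.5 CPM in normal glucose. Of 23 genes for SREBP transport and sterol control in the endoplasmic reticulum, 0 passed over the 4 levels. For a list of this length, that too is close to the shares over all genes. Sec24c, a coat protein of the vesicles that leave the endoplasmic reticulum, was lower in the treated comparison (log2 -0.30 ± 0.08, adjusted p = 0.0174). It averaged 73.3 ± 6.32 CPM in treated high glucose and 89.5 ± 10.6 CPM in treated normal glucose.

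Of 15 other genes tied to sterol response, sterol handling or electron transfer to sterol enzymes, 4 were higher over the 4 levels (5.71% of all genes were). Between the controls 0 were (1.89%). Lpin1, a phosphatidate phosphatase, averaged 24.7 ± 3.59 CPM in high glucose and 16.7 ± 3.02 CPM in normal glucose (log2 0.58 ± 0.12, adjusted p = 0.000558). Tmem97, a sterol-binding membrane protein, was higher by 0.38 ± 0.09 and Erg28, a scaffold for sterol enzymes in yeast, by 0.34 ± 0.08 on the log2 scale. All 3 had ranges that overlapped between the media.

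Of 15 genes for sterol storage, oxidation and export, 2 were higher and 2 lower over the 4 levels, where 5.71% of all genes were called higher and 4.38% lower. Npc1 and Npc2, which pass cholesterol out of the lysosome, were higher by 0.57 ± 0.09 and 0.43 ± 0.05 on the log2 scale. Npc2 averaged 629 ± 33.1 CPM in high glucose and 468 ± 51.3 CPM in normal glucose, and its libraries did not overlap between the media. Gramd1b, which carries sterol from the plasma membrane to the endoplasmic reticulum, was lower (log2 -0.35 ± 0.10, adjusted p = 0.0169). Of 14 fatty acid genes driven mainly by SREBP1, 6 were higher over the 4 levels and 3 between the controls, where 5.71% and 1.89% of all genes were. Scd2, a fatty acid desaturase, had a log2 change of 0.71 ± 0.11 between the controls and 0.18 ± 0.07 among treated libraries, which did not pass there (adjusted p = 0.0999). Slc25a1, the citrate carrier that supplies acetyl units to the cytosol, had 0.73 ± 0.17 between the controls and 0.34 ± 0.11 among treated libraries, and passed in both.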

How the data were processed

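Polyadenylated RNA of 24 libraries was measured by RNA-seq, and each deposited file lists unnormalized counts of reads for 56941 genes. Per the submitters' processing notes, FastQC 0.11.9, STAR 2.7.5c, HTSeq 1.99.2, DESeq2 3.16 and the build GRCm39 were used; parameters and strand setting are not given in the sources used here. Groups were read from sample titles. The 5 summary lines of each file (reads outside genes 14.4 to 20.6%, ambiguous 3.46 to 4.15%, multimapped 16.5 to 18.9%) entered neither library sizes nor tests. The first component of a principal component analysis held 11.1% and the second 9.61% of the variance.

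Counts of 22 libraries were fitted with edgeR 4.0.16 in R 4.3.3 (TMM factors, default low-count filter, group means, robust quasi-likelihood F tests, 14 residual degrees of freedom), with Benjamini-Hochberg adjustment over 13281 genes and a threshold of 0.05. CPM values use TMM-scaled library sizes, and library means use a pseudocount of 1. HGC against NGC, treated and all libraries by medium, each dose, treatment in each medium and the interaction were tested. On simulated counts of 13281 genes with 200 changed, HGC against NGC recovered 16.3% of genes changed by 0.5 and 57.4% of genes changed by 1.0 (log2), and all high against all normal glucose 59.2% and 78.7%. False calls were 4 of 117 (3.42%) in the former comparison and 11 of 173 (6.36%) in the latter, which is above the threshold of 0.05. Alternatives were DESeq2 1.42.0, RLE factors, no filter, only the groups compared, a replicate block, the identical file kept, and libraries left out. RefSeq start windows were searched for motifs.

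The genes, the lists, the tests and the alternatives were chosen with earlier results of these data known. All 28 genes are named. Of each other list the rule takes the 3 lowest p-values over the 4 levels and any gene called between the controls, of which examples are given. Some sterol genes are not reported here.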

Additional observations from a re-analysis of the deposited data

Results flagged for a closer look

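The file deposited for both HG2 replicate 3 and HG3 replicate 2 entered no comparison of the main fit, because nothing says to which dose it belongs. Only alternative fits kept it. Both labels place it in high glucose. Over the 19 tested enzymes, its mean of log2(CPM + 1) was 0.54 above the NGC mean. The 3 NGC libraries, whose mean sets the 0, lay between -0.01 and 0.01, and the 9 treated normal-glucose libraries between 0.0 and 0.13. The enzyme mean of the file thus lay above those of the untreated and the treated normal-glucose libraries, in data left out of the main fit. It had 232 CPM of Hmgcs1 and 246 CPM of Msmo1, inside the high-glucose ranges of 177 to 285 and 209 to 270 CPM. Of the 19 enzymes, 12 lay in the high-glucose range alone, 5 in the ranges of both media and 2 in the normal-glucose range alone. Those 2 were Mvk at 41.8 CPM (45.2 to 75.5 in high glucose and 32.4 to 56.0 in normal glucose) and Fdft1 at 28.8 CPM (30.1 to 48.0 in high glucose and 17.2 to 40.0 in normal glucose). Over the 7 control genes its mean was 0.09 above the NGC mean. The same counts and the file's mean over all tested genes are not given here, so these values have no background share beside them. In the 22 libraries used, the mean over all tested genes lay between -0.07 (NG3 replicate 3) and 0.029 (NG2 replicate 1).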

How the results depend on the processing

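The numbers of genes called in HGC against NGC (14), over the 4 levels (18) and in treated libraries (18) stayed within 1.5 times with only the groups compared, without the low-count filter, under RLE factors and DESeq2, with all 24 files, the identical file in either dose, and without NG3 replicate 3 and HGC replicate 2. That first setting has no separate value over the 4 levels or for the interaction, since all groups enter. HG3 against NG3, with 5 calls, had 9 with all 24 files, 9 with the identical file as HG3 replicate 2, and 0 with only those groups in the fit. Leaving out single libraries gave 9 to 13 calls in HGC against NGC, 7 to 10 in HG1 against NG1, 0 to 3 in HG2 against NG2, 0 to 5 in HG3 against NG3, 14 to 19 in treated libraries, 18 to 20 over the 4 levels, and 0 to 1 in NG3 against NGC. A group left with 1 library is assumed to vary like the others.

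Replicate numbers did not pair the libraries: deviations of same-numbered libraries had a median correlation of 0.0107 over 70 pairs, with 1 pair over 0.1. With the replicate number as a block, HGC against NGC had 14 calls, treated libraries 18, all 4 levels 18, and HG1, HG2 and HG3 against their normal-glucose groups 11, 9 and 5.

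Of 3780 refits of single genes, 169 changed sign, 0 of them where a fit passed the threshold. In HGC against NGC these were Insig2 at -0.00672 without the filter and -0.00115 with the block, Mbtps1 at 0.00837 without NG3 replicate 3 and HGC replicate 2 and 0.00448 with only the groups compared, and Srebf1 at 0.05 without those 2 libraries. Mbtps2 was at -0.04 with all 24 files in treated libraries and over the 4 levels, and over the 4 levels at -0.0054 with the file in HG2. Srebf1 in treated libraries was at 0.000365 with DESeq2, 0.000626 with RLE and 0.00519 with only the groups compared, and over the 4 levels at 0.00709 without the 2 libraries. Without single libraries, HGC against NGC ranged from -0.03 to 0.12 for Ggps1, -0.005 to 0.80 for Insig1, -0.15 to 0.11 for Insig2, -0.05 to 0.03 for Mbtps1, -0.14 to 0.04 for Mbtps2 and -0.38 to 0.04 for Srebf1. Treated libraries ranged from -0.12 to 0.22 for Lbr, -0.00722 to 0.12 for Mbtps2 and -0.06 to 0.06 for Srebf1, and all 4 levels from -0.19 to 0.07 for Lbr, -0.02 to 0.07 for Mbtps2, -0.06 to 0.00629 for Scap and -0.10 to 0.00795 for Srebf1. The cause was not tested.

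Counts over all genes moved more. HG1 against NG1 (221) had 342 with DESeq2, 432 without the 2 libraries and 586 with only the groups compared. HG2 against NG2 (101) had 158, 187 and 280 in the same settings, 198 with all 24 files and 193 with the file in HG2. HG3 against NG3 (122) had 234, 207 and 4, and 354 with all 24 files, 325 with the file in HG3 and 228 without the filter. Treatment in normal glucose (0) had 103 with DESeq2 and 62 without the filter, the interaction (1) 72 and 42, and NG3 against NGC (17) 167 and 186, with 0 in only the groups compared, 0 without the 2 libraries, 5 with RLE and 53 with all 24 files. HG1 against HGC (0) had 13 with DESeq2, 50 without the filter, 14 with only the groups compared and 2 with the block, and NG2 against NGC (1) had 35, 21, 2 and, without the 2 libraries, 17. Without the filter, HG2 and HG3 against HGC and treatment in high glucose (0 each) had 2, 3 and 5, and the interaction had 6 with all 24 files. With single libraries left out, the counts over all genes, on which the background shares rest, were 163 to 258 in HGC against NGC (303), 65 to 179 at dose 1, 19 to 57 at dose 2, 31 to 178 at dose 3, 654 to 1277 in treated libraries (1076), 958 to 1597 over the 4 levels (1340), 0 to 182 in NG3 against NGC and 0 to 10 for treatment in normal glucose. Depth was 3396249 to 7773074 counts, and Idi1, at 0.238 to 2.49 CPM, did not pass the filter.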
